A study of Mus musculus with 76 samples.

Results

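Right ventricles (RV) of male mice on a normal diet (ND) were compared between animals exposed to a mixed radiation field and sham animals. The comparison took 18 of the 76 RNA libraries of the series, chosen by their labels: 8 labelled with the mixed field at 50 cGy (M1, M4, M5 and M21 to M25) and 10 labelled sham at 0 cGy (M6 to M10 and M26 to M30). The libraries of female mice under the same labels, 10 with the mixed field and 9 sham, were used for a second look at the same contrast. All of these mice were C57Bl/6J on the normal diet, and no transgene or drug was labelled. The study's sample sheet gave ages for sham mice only. M6 to M10 were collected at 530 days (the younger sham) and M26 to M30 at 750 days (the older sham). The female sham were also of mixed age, with F6 to F9 at 530 days and F26 to F30 at 640 days. The age of the irradiated mice, the time since exposure and the particles of the mixed field were not given in the sources used here.

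Ionizing radiation breaks DNA strands, and cells answer through the kinases that sense breaks and the transcription factor p53. p53 turns on genes for cell cycle arrest (Cdkn1a), for its own turnover (Mdm2) and for cell death (Bax). Heart muscle cells divide rarely, and late effects of radiation in the heart are best known in vessels, in immune cells and in the extracellular matrix that fibroblasts make. The right ventricle is a thin chamber beside the right atrium, and a piece of it can carry atrial tissue.

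Total counts ran from 11426111 to 19058680 per library and averaged 14640700 ± 2300200 (SD, n = 8) in the mixed-field libraries and 15561800 ± 2538130 (SD, n = 10) in the sham libraries. The RNA integrity number (RIN), a measure of how intact the RNA was, split the mixed-field libraries into M1, M4 and M5 at 7.7, 8.2 and 8.5 and M21 to M25 at 4.5 to 5.7, while the sham libraries ran from 3.6 to 7.3. The group means of RIN were 6.04 ± 1.79 (SD, n = 8) and 5.2 ± 1.26 (SD, n = 10), a difference of 0.838 that was within the spread of the libraries (exact two-sided permutation p = 0.262, adjusted p = 0.429 over 5 measures). Library totals gave an exact permutation p of 0.429. RIN entered every main model as a number.

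Some libraries stood too close together to be taken as separate mice without a check. A mean chi-square per gene, near 1 for pure counting noise, had a median of 120 over the 153 pairs of the 18 libraries. It was 2.32 for M22 and M24, the only one of these pairs under a limit of 5. M21, labelled mixed field and normal diet, gave 2.13 to 2.64 with M12 to M15, which were labelled sham and Western diet. The male comparison was therefore repeated without M21 and with near-identical libraries counted once, and 0 genes were called either way. Where the labels do not state separate animals, p-values measure the spread between libraries.

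On the first principal component (PC1), which held 56.4% of the variance of the 500 most variable genes, the libraries did not separate by field. M21 to M25 and the younger sham lay together between 7.42 and 15.6, and M1, M4, M5 and the older sham lay between -31.3 and -7.55. On the second component (19.5% of the variance), M1, M4 and M5 were lowest at -17.1 to -12.2, whereas M21 to M25 lay within the sham range of -7.37 to 20.1. The exact permutation p for field was 0.345 on PC1 and 0.0498 on PC2, the latter 0.162 after adjustment over the 5 measures.

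**Figure D1:**
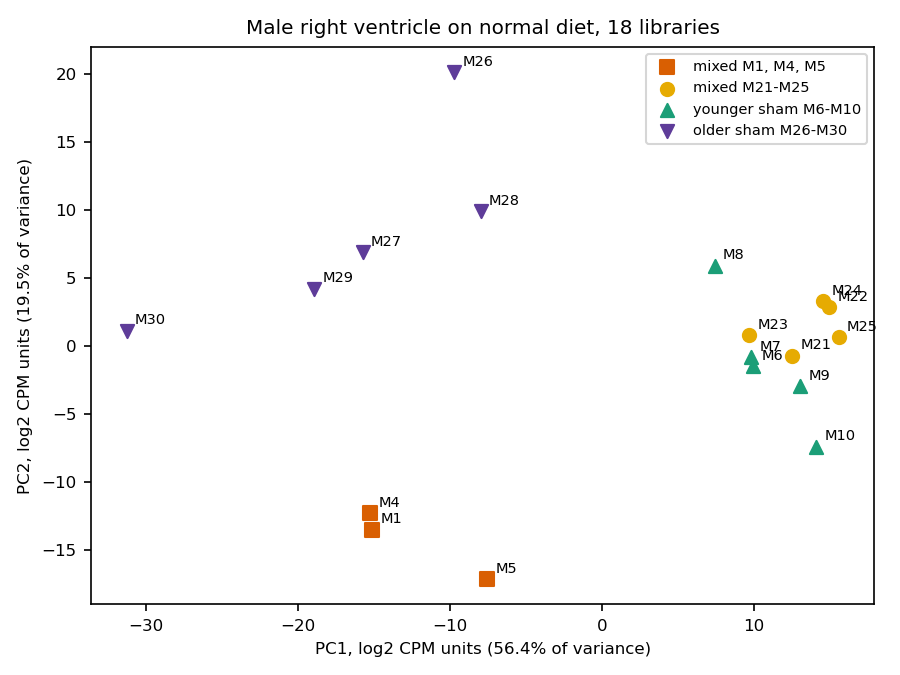
Each point is 1 of 18 male libraries placed by its scores on the first (horizontal, 56.4% of variance) and second (vertical, 19.5%) principal components, in units of log2 CPM, with colour and shape for the 4 sets of libraries. M21 to M25 sit beside the younger sham on the right, and M1, M4 and M5 sit apart at the lower left.

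The whole table was tested for a difference between mixed field and sham, with RIN in the model. Of 11211 genes with more than 20 counts in every library, 0 were called at an adjusted p under 0.05 by edgeR's quasi-likelihood test, which is 0% of those tested. At an unadjusted p under 0.05 there were 1006 genes, 8.97% of those tested, of which 295 (2.63%) were higher and 711 (6.34%) lower in the mixed-field libraries. The lowest adjusted p was 0.118. DESeq2 called 20 genes on the same counts, 8 of them higher and 12 lower, and leaving out sham library M9 gave 2 calls by edgeR, Clmp and Ifitm1. The median log2 fold change over all genes tested was -0.016. The RIN term of the same model called 2375 genes.

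The genes that came nearest to a call are given as values, since none passed the test. Among the 10 positive values (rises) with the lowest p, Ifitm1, an interferon-induced membrane protein, had the smallest p. Its level was 4.42 to 12.6 CPM (counts scaled to the depth of the library) with a median of 8.11 in the mixed-field libraries and 3.35 to 8.91 with a median of 4.52 in sham. The log2 fold change was 0.93 ± 0.17 (SE), with an edgeR adjusted p of 0.118. The groups overlapped, and 7 of 8 mixed-field libraries lay above the sham median. Ifitm1 is on GRCm39 at chr7:140546316-140549743. It belongs to a family of like sequences, as does Gsta3, so that reads may be shared with its relatives. Its level also followed RIN, with a slope of -0.23 log2 units per unit of RIN (adjusted p = 0.0102).

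Zbtb16, a zinc-finger transcription factor that glucocorticoids induce, and Ddit4, an inhibitor of the mTORC1 kinase, had the 2 largest log2 fold changes of the 10 rises. Zbtb16 was at 12.9 to 55.6 CPM (median 18.9) in the mixed-field libraries and at 1.73 to 14.9 CPM (median 9.79) in sham, a log2 fold change of 1.10 ± 0.27 with an edgeR adjusted p of 0.347. Ddit4 was at 24.6 to 94.3 CPM (median 32.2) against 8.81 to 30.6 CPM (median 19.9), a log2 fold change of 0.96 ± 0.24 with the same adjusted p of 0.347. Every mixed-field library lay above the sham median for both genes, and M5 was highest in each. Both genes also followed RIN across the libraries, by 0.26 and 0.24 log2 units per unit of RIN (adjusted p = 0.0422 and 0.0324).

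Of the other rises, Wee1, the kinase that holds Cdk1 inactive before mitosis, was at 13.7 to 17.7 CPM against 4.76 to 13.7 CPM in sham, with 8 of 8 libraries above the sham median. Shld1, a subunit of the shieldin complex that protects broken DNA ends, was at 25.996 to 62.1 CPM against 16.5 to 44.4 CPM, a log2 fold change of 0.71 ± 0.14. Shld1 had a slope of -0.20 log2 units per unit of RIN (adjusted p = 0.00614). Gsta3, a glutathione S-transferase, had a log2 fold change of 0.70 ± 0.14 and Ier3, an early response gene, 0.60 ± 0.13, with 8 of 8 libraries above the sham median for each. Rhobtb1, an adaptor for the ubiquitin ligase cullin 3, had 0.46 ± 0.11 and Sphk2, a sphingosine kinase, 0.40 ± 0.11.

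Ammecr1 and Clock were the only 2 of 11211 genes (0.0178%) whose mixed-field and sham libraries did not overlap. Ammecr1, at chrX:141634142-141749858, was at 7.88 to 10.5 CPM (median 9.25) in the 8 mixed-field libraries and at 4.97 to 7.79 CPM (median 6.79) in the 10 sham libraries. Clock, the partner of Bmal1 in the core of the circadian clock, at chr5:76342860-76452846, was at 14.1 to 18.1 CPM (median 16.6) against 18.2 to 30.8 CPM (median 22.8). Their log2 fold changes were 0.46 ± 0.11 and -0.53 ± 0.13, with edgeR adjusted p of 0.292 and 0.337. Clock had -0.26 against the younger and -0.84 against the older sham alone. In both genes the gap between the groups was small beside the spread within them, and the median of the younger sham lay nearer to the mixed-field libraries than that of the older sham. Tmem165, on the other strand, reaches into the 500 bp at the 3' end of Clock where reads were counted, and the strand setting of the counting was not stated. Of the 80 genes chosen by rule, 28 had another gene in this window.

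Among the 10 negative values (falls) with the lowest p, Clmp, a cell adhesion molecule of epithelia, had the smallest p. It was at 1.87 to 2.63 CPM (median 2.10) in the mixed-field libraries and at 2.03 to 6.46 CPM (median 4.76) in sham, a log2 fold change of -1.02 ± 0.19 with an edgeR adjusted p of 0.118. All 8 mixed-field libraries lay below the sham median, and the lowest sham library reached into their range. Ltbp2, which binds elastic fibres and belongs to the proteins that hold latent TGF-beta, was at 3.81 to 7.88 CPM (median 5.198) against 5.09 to 33.3 CPM (median 12.5), a log2 fold change of -1.46 ± 0.31 and an adjusted p of 0.152. For Ltbp2 the value was -0.90 against the younger sham alone and -0.84 with a term for atrial markers, described with the matrix genes. Mmp14, a membrane-bound protease that cuts collagen, was at 10.1 to 26.9 CPM (median 17.4) against 23.5 to 64.9 CPM (median 31.4). Ltbp2 was lower than the sham median in 8 of 8 libraries, as was Mmp14 (log2 fold change -0.74 ± 0.17, adjusted p = 0.229 by edgeR).

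Other falls held genes of several kinds. The receptor phosphatase Ptprf had a log2 fold change of -1.14 ± 0.24, the calpain protease Capn5 -0.71 ± 0.14, the RNA-binding protein Bicc1 -0.67 ± 0.14 and the ADP-ribosyltransferase Tiparp -0.65 ± 0.16. Across the 10 rises and 10 falls with the lowest p the edgeR adjusted p ran from 0.118 to 0.470, and 14 of 20 had all 8 mixed-field libraries on 1 side of the sham median. For 7 of the 20 the RIN term of the same model was called, beside 2375 of all 11211 genes tested. Against the younger sham alone the log2 fold change was more than 1.5 times smaller for Ddit4 (0.59), Bicc1 (-0.41), Ptprf (-0.63), Mmp14 (-0.42) and Tiparp (-0.31), besides Clock and Ltbp2. All 20 kept their sign without M21, without RIN in the model and with near-identical libraries counted once. These settings refit the libraries from which the genes were chosen, so that kept signs are no separate check. The same holds for the side of the sham median, whose share over all genes tested is not given here.

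**Figure D2:**
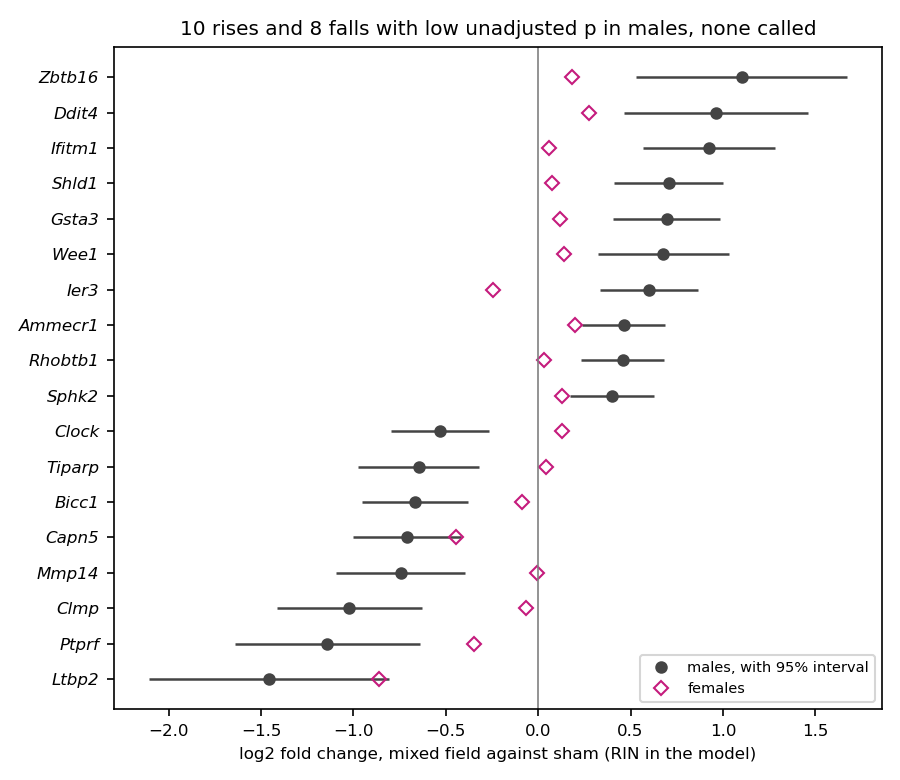
Log2 fold change of mixed field against sham for 10 rises and 8 falls among those with the lowest unadjusted p in males (filled circles, bars for the 95% interval of the edgeR model with RIN) and the value of the same genes in females (open diamonds). The male intervals exclude 0 although none of the genes was called, from Zbtb16 at 1.10 to Ltbp2 at -1.46, and the female values lie nearer to 0 for most genes.

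The p53 targets lay close to 0. Of 30 listed, 23 passed the filter on counts, 0 were called, 0 had an unadjusted p under 0.05, and the median log2 fold change was 0.05 against -0.016 over all genes tested. The 95% interval of the log2 fold change lay between -1 and 1 for all 23 tested members. This held for 10331 of all 11211 genes tested.

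Cdkn1a, the inhibitor of cyclin-dependent kinases that p53 induces, was at 16.3 to 41.9 CPM (median 25.8) in the mixed-field libraries and at 15.4 to 45.0 CPM (median 27.5) in sham. Its log2 fold change was 0.03 ± 0.19 with a 95% interval from -0.37 to 0.43. Mdm2, the ubiquitin ligase of p53, was at 37.9 to 65.8 CPM (median 43.4) against 42.4 to 68.3 CPM (median 45.9). The groups overlapped almost fully in both genes. Mdm2 was at 51.1 to 65.8 CPM in M1, M4 and M5 and at 37.9 to 43.6 CPM in M21 to M25, beside 47.5 to 68.3 CPM in the older and 42.4 to 44.4 CPM in the younger sham.

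Ccng1, a cyclin-like p53 target, was the most abundant of the list at 299 to 512 CPM (median 441) against 213 to 500.2 CPM (median 428), a log2 fold change of 0.09 ± 0.15. Bax, which opens the mitochondrial membrane in cell death, was at 23.6 to 35.3 CPM against 21.1 to 43.1 CPM, a log2 fold change of -0.0016 ± 0.15. Phlda3, an inhibitor of the kinase Akt, was at 13.97 to 30.4 CPM against 16.996 to 47.2 CPM, with all 8 mixed-field libraries below the sham median and a log2 fold change of -0.29 ± 0.16. None of these 3 was called (edgeR adjusted p = 0.766, 0.995 and 0.511). Eda2r, a receptor of the tumour necrosis factor family, was too low for the filter, at 1.37 to 3.39 CPM against 0.579 to 3.11 CPM. Perp, a membrane protein, and Ephx1, an epoxide hydrolase, had log2 fold changes of 0.24 ± 0.18 and 0.12 ± 0.09.

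**Figure D3:**
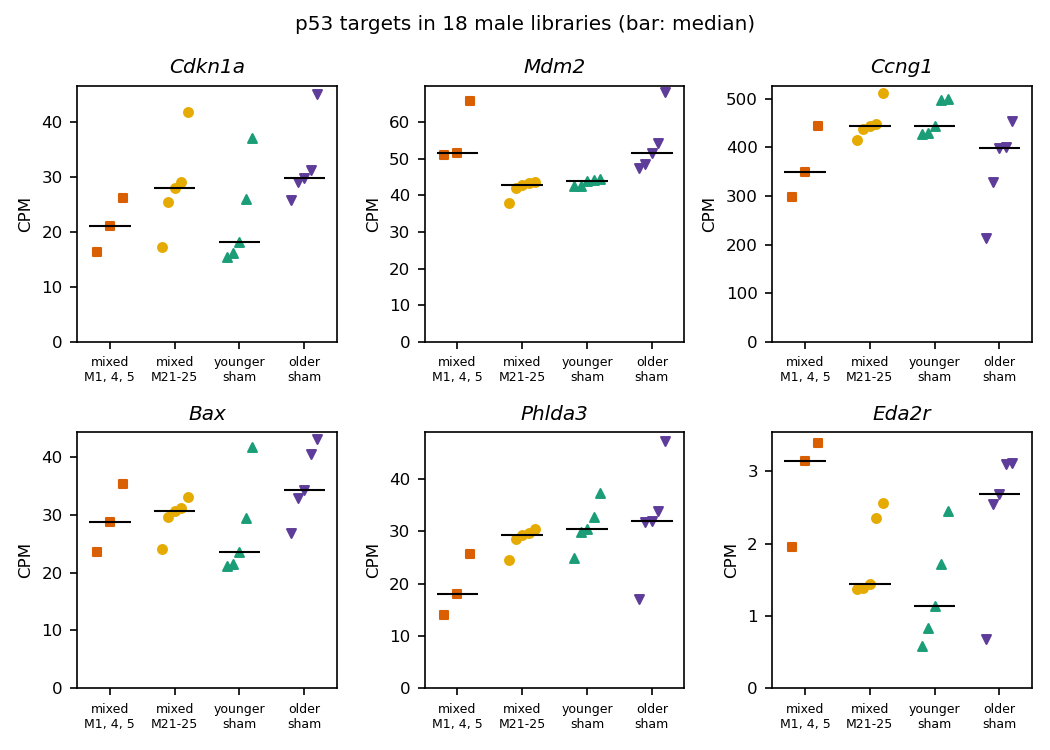
Levels of 6 p53 targets in CPM (vertical axes, from 0) in M1, M4 and M5, in M21 to M25, in the 5 younger and in the 5 older sham libraries (1 point per library, bar for the median). Mixed-field and sham points overlap in every panel, and Mdm2 is higher in M1, M4 and M5 (51.1 to 65.8) and the older sham (47.5 to 68.3) than in the other libraries.

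Genes that repair DNA gave small values as well. Of 18 tested genes of double-strand break repair, 0 were called and 0 had an unadjusted p under 0.05, with a median log2 fold change of -0.16. Of these 18, 5 were above 0, beside 5290 of all 11211 genes tested, and 10 of 18 were above 0 against the younger sham alone. Their most abundant members, Xrcc6 and Xrcc5, which form the Ku ring that grips broken ends, had 0.0033 ± 0.11 and -0.07 ± 0.17, and Nbn of the break-sensing MRN complex had 0.21 ± 0.17. Of 14 tested genes of single-strand and base repair, 0 were called and the median was -0.03. Parp1, the break sensor that makes poly-ADP-ribose, was at 31.7 to 47.4 CPM against 23.3 to 48.6 CPM, and the scaffold Xrcc1 had a log2 fold change of 0.14 ± 0.13. In the cell cycle list, 0 of 11 tested genes were called and the median was -0.10, with Ccnd3 at 0.30 ± 0.19, the centromere histone Cenpa at -0.11 ± 0.09 and Ccnd2 at -0.28 ± 0.20.

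Genes of senescence and secreted factors had a median of -0.02 over 15 tested members. None was called, and 1 had an unadjusted p under 0.05. This was Igfbp5, which binds insulin-like growth factors, at 88.0 to 114 CPM (median 95.3) in the mixed-field libraries and 52.3 to 299 CPM (median 123) in sham, a log2 fold change of -0.64 ± 0.24. Igfbp5 had -0.29 against the younger sham alone, -0.96 against the older and -0.22 with a term for atrial markers. Its relative Igfbp7 and the chemokine Cxcl12 had 0.07 ± 0.22 and 0.03 ± 0.16. Cxcl12 was at 298 to 386 CPM in M1, M4 and M5 and at 163 to 190 CPM in M21 to M25.

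Interferon-induced and class I MHC genes, which present antigen and answer viral RNA or stray DNA, had a median of 0.20, with 23 of 30 tested members above 0. The median was 0.30 against the younger and -0.06 against the older sham alone. Without M1, M4 and M5 it was -0.020, with 13 of 30 above 0, 3 higher and 2 lower at an unadjusted p under 0.05. None was called. At an unadjusted p under 0.05, 5 of 30 were higher and 0 lower, against 2.63% higher among all genes tested. Irf7, the transcription factor that amplifies interferon, was at 23.2 to 114 CPM (median 48.3) in the mixed-field libraries and at 20.3 to 53.1 CPM (median 30.9) in sham, a log2 fold change of 0.68 ± 0.28. M1 and M4 were highest for Irf7 at 114 and 78.6 CPM, M5 was lowest of the 8 at 23.2 CPM, and M21 to M25 reached at most 50.5 CPM. Bst2 and Isg15, a tether of virus particles and a ubiquitin-like modifier, had 0.46 ± 0.17 and 0.51 ± 0.20. The mixed-field and sham ranges overlapped in each, with 6 of 8 libraries above the sham median in each. In females Irf7 had -0.10 and Bst2 -0.24. The most abundant members gave 0.26 ± 0.13 for B2m, the light chain of class I MHC, and 0.23 ± 0.14 and 0.21 ± 0.15 for the heavy chains H2-D1 and H2-K1, which are close in sequence so that their reads may be shared.

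Collagens and other genes of the extracellular matrix lay mostly below 0. Of 33 tested members 30 were below 0, and the median log2 fold change was -0.37. None was called, and 17 of 33 had an unadjusted p under 0.05 in the lower direction, against 6.34% of all genes tested. Beside Mmp14, Col3a1, the chain of type III collagen, was at 55.9 to 126 CPM (median 84.6) against 64.1 to 255 CPM (median 139.9), a log2 fold change of -0.86 ± 0.22 with an edgeR adjusted p of 0.408. Postn, a matrix protein of activated fibroblasts, had -0.92 ± 0.31. Both lay below the sham median in 8 of 8 libraries. The most abundant members had smaller values, with -0.09 ± 0.16 for Sparc, -0.33 ± 0.17 for Dcn and -0.36 ± 0.16 for Bgn.

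Atrial markers differed among the same libraries. The summed level of 10 atrial cardiomyocyte markers was 97.4 to 122 CPM in M1, M4 and M5, 472 to 1106 CPM in M21 to M25 and 173 to 14029 CPM in sham, highest in the older sham library M26. Myl4, the atrial light chain of myosin, was at 2.37 to 467 CPM in the mixed-field libraries and at 11.8 to 6891 CPM in sham. The exact permutation p for the log2 sum was 0.0649 (0.162 after adjustment over the 5 measures). All 5 tested atrial markers were below 0, with a median of -1.31, and 3 of 5 had an unadjusted p under 0.05. With the log2 atrial sum as a further term, the median of the matrix list was -0.24. In that fit 9 of 33 members were lower at an unadjusted p under 0.05 and 1 was higher, the fibril-associated collagen Col14a1 at 0.35, while 396 of all 11211 genes were lower. There Mmp14 had -0.69, Col3a1 -0.60 and Postn -0.24. In bulk tissue, fewer cells of a type and less RNA per cell cannot be told apart.

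**Figure D4:**
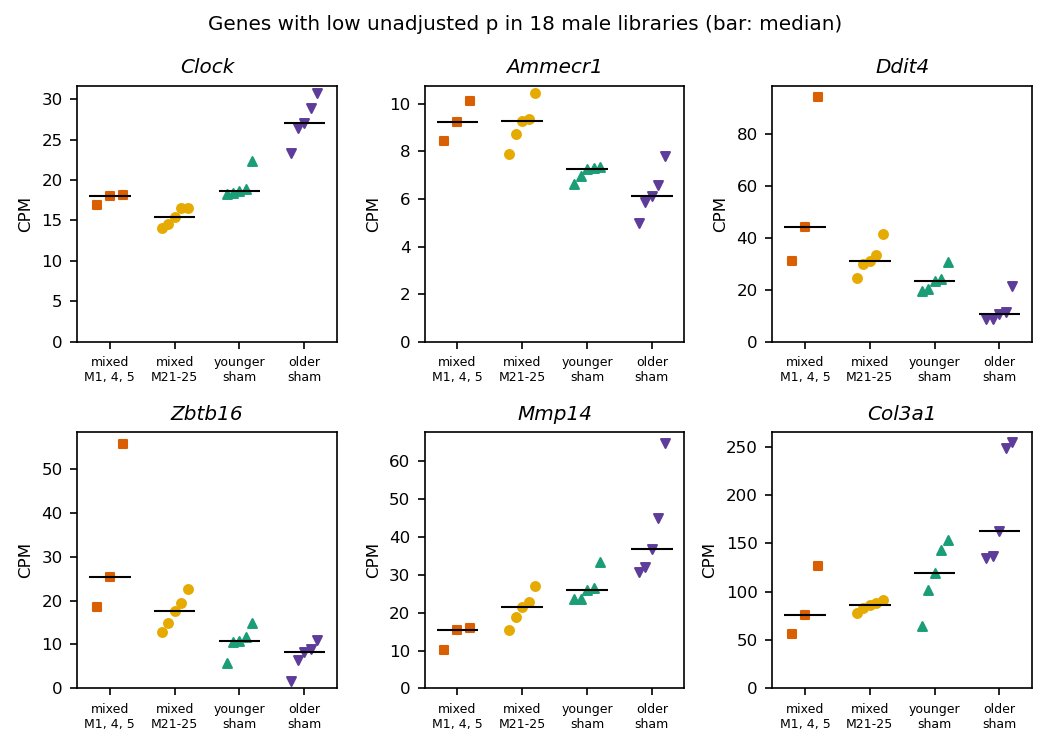
Levels of 6 genes in CPM (vertical axes, from 0) in M1, M4 and M5, in M21 to M25, in the 5 younger and in the 5 older sham libraries (1 point per library, bar for the median). Clock and Ammecr1 do not overlap between the 8 mixed-field and the 10 sham libraries, Ddit4 and Zbtb16 are highest in M5 (94.3 and 55.6), and Mmp14 and Col3a1 are highest in the older sham.

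Other cell types were checked with the same kind of list. All 7 fibroblast markers were below 0 (median -0.39), 4 of 7 with an unadjusted p under 0.05 against 6.34% lower among all genes tested, and the summed level was 1554 to 2407 CPM against 1561 to 3206 CPM in sham. With the atrial term 1 of the 7 passed this threshold (median -0.25), and with RIN from 4 to 6 there were 0. The fit with RIN from 4 to 6 compared M21 to M25 with M6, M8, M9, M10, M26 and M30 only. It had no RIN term, so that it differs from the main fit in its libraries as well as in RIN. The 8 ventricular cardiomyocyte markers summed to 50329 to 66186 CPM against 22376 to 73980 CPM. In sham library M26 the atrial Myl4 was at 6891 CPM, above Myl2 of the ventricular list at 3582 CPM. The ventricular sum therefore does not show how much atrial tissue a library held. Endothelial (median -0.08, 11 tested), smooth muscle and pericyte (-0.22, 6 tested) and macrophage markers (-0.24, 10 tested) held 0, 2 and 2 members with an unadjusted p under 0.05, all lower. Both tested B and plasma cell markers and the 1 tested valve and cartilage marker were lower at an unadjusted p under 0.05 (medians -0.87 and -1.02). Against the younger sham alone the median was 0.086 for the B and plasma cell markers and 0.021 for the macrophage markers, and with the atrial term that of the macrophage markers was 0.085. The smooth muscle and pericyte median was 0.11 against the older sham alone and -0.40 against the younger sham alone. In the latter 4 of 6 members were lower at an unadjusted p under 0.05, beside 302 of all 11457 genes. Of the red blood cell (-0.0069, 4 tested), Schwann cell (-0.20, 3 tested), skeletal muscle (0.05, 2 tested), neutrophil (-0.17), adipocyte (0.31) and epicardial markers (-0.0053, 1 tested each), 0 had an unadjusted p under 0.05. Skeletal muscle markers summed to 426 to 1097 CPM against 78.5 to 2187 CPM, and the 7 T cell and 5 lung markers, none of which passed the filter, to at most 7.31 and 0.707 CPM. Among all these markers 1, for skeletal muscle, was at 0 in every library. Of the 4 tested genes that check sex, 0 had an unadjusted p under 0.05 (median -0.27). Beyond the atrial term, the part of these cell types in the values above was not tested.

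Glucocorticoid-induced genes, which follow stress hormone, had a median of 0.30, with 5 of 14 tested members higher at an unadjusted p under 0.05 and 0 lower, against 2.63% higher among all genes tested. With RIN from 4 to 6 there were 2 of 14. The median was 0.28 against the younger and 0.20 against the older sham alone. None was called. Beside Zbtb16 and Ddit4, Per1 was at 99.9 to 173 CPM (median 111) in the mixed-field libraries and at 31.7 to 106 CPM (median 86.8) in sham, a log2 fold change of 0.55 ± 0.19. Per1 had 0.23 against the younger and 0.93 against the older sham alone. Tsc22d3 and Fkbp5, both classic targets of the receptor, had 0.29 ± 0.11 and 0.33 ± 0.15. All 5 had 8 of 8 mixed-field libraries above the sham median. By contrast Sgk1, a kinase of the same list, had -0.05 ± 0.24, being at 123 to 140.1 CPM in M1, M4 and M5 and at 44.6 to 54.8 CPM in M21 to M25, and Pdk4, which turns the heart from glucose to fat, had 0.52 ± 0.34.

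Genes of the circadian clock had values on both sides of 0. Of 11 tested genes of the output arm, largely driven by Clock and Bmal1, 3 were higher at an unadjusted p under 0.05. The share was 2.63% higher among all genes tested, and the median of the arm was 0.08. With RIN from 4 to 6 there were 0 of 11 and a median of -0.13. Against the younger sham alone 2 were higher and 2 lower, with a median of 0.14. Hlf, a PAR-domain transcription factor, had 0.49 ± 0.19, whereas its relatives Dbp and Tef had 0.25 ± 0.28 and -0.02 ± 0.20 and the repressor Nr1d1 -0.18 ± 0.28. Dbp was at 131 to 200.02 CPM in the mixed-field libraries, 116 to 218 CPM in the younger and 39.1 to 110 CPM in the older sham. In the opposite arm, Clock had -0.53 ± 0.13, while Cry1 (0.39 ± 0.13) and Nfil3 (0.36 ± 0.16) were above 0. Bmal1, too low for the filter, was at 0.460 to 2.56 CPM against 0.984 to 8.36 CPM, below the sham median in 8 of 8 libraries. The hours of collection were not given in the sources used here.

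Oxidative stress defence genes had a median of 0.20 over 27 tested members, with 2 higher and 1 lower at an unadjusted p under 0.05. Against the younger sham alone the median was -0.0023 with 13 of 27 above 0, and against the older sham alone it was 0.36. The lower one was Gpx3, the secreted glutathione peroxidase, at 223 to 557 CPM (median 420) in the mixed-field libraries and at 332 to 3267 CPM (median 749) in sham, a log2 fold change of -1.30 ± 0.40. Mt1, a metal-binding protein, had 0.45 ± 0.14, and the abundant Gpx4 and Prdx5 had 0.20 ± 0.15 and 0.24 ± 0.17. Gpx3 was at 672 to 3267 CPM in the older sham and at 332 to 826 CPM in the younger sham, and its log2 fold change was -0.11 against the younger sham alone.

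Genes of heart muscle work had medians above 0 against all sham, with 0 called, and medians from -0.11 to 0.04 against the younger sham alone. The medians were 0.31 for fatty acid oxidation (31 tested), 0.22 for the sarcomere (21 tested), 0.21 for oxidative phosphorylation (71 tested), 0.26 for heat shock and chaperones (19 tested) and 0.09 for calcium handling and ion channels (23 tested). At an unadjusted p under 0.05 they held 2, 0, 0, 2 and 1 higher members and 0 lower ones. Among the abundant members, the fatty acid carrier Fabp3 had 0.38 ± 0.23, the oxidation enzyme Hadha 0.34 ± 0.28, the transporter Cd36 0.21 ± 0.14, the calcium pump Atp2a2 0.30 ± 0.21, its inhibitor Pln 0.49 ± 0.25 and the calcium-binding Hrc 0.26 ± 0.21. The motor protein Myh6, the troponin Tnnt2 and the light chain Myl2 had 0.21 ± 0.21, 0.29 ± 0.20 and 0.29 ± 0.23. The ATP synthase subunits Atp5f1b and Atp5f1a had 0.23 ± 0.18 and 0.18 ± 0.17 and the cytochrome oxidase subunit Cox6a2 0.24 ± 0.13. The chaperones Cryab, Hspb7 and Hspa8 had 0.37 ± 0.16, 0.45 ± 0.32 and 0.26 ± 0.11.

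Cardiac stress genes had a median of -0.04 over 12 tested members. Nppb, the stress hormone of the ventricle, was at 47.8 to 197 CPM (median 96.9) in the mixed-field libraries and at 44.6 to 2110 CPM (median 156) in sham, a log2 fold change of -1.70 ± 0.65 with an edgeR adjusted p of 0.511. The stretch-responsive Ankrd1 had -0.62 ± 0.41 and the Z-disc protein Csrp3 0.20 ± 0.17. Ankrd1 had -0.26 against the younger sham alone and -0.32 with a term for atrial markers. The size of the Nppb value in these settings is not given here. Immediate early genes had a median of -0.07 over 18 tested members, 2 of them higher at an unadjusted p under 0.05, with Klf2 at 0.21 ± 0.19, Dusp1 at -0.09 ± 0.19 and Jun at 0.32 ± 0.19. Cytosolic ribosomal protein genes had a median of -0.05 over 77 tested members, 0 of which had an unadjusted p under 0.05. Rps2 and Rplp0 had 0.11 ± 0.13 and 0.11 ± 0.12, and Rpsa -0.25 ± 0.22.

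The choice of sham libraries decided how many genes were called. Against the younger sham alone, 0 of 11457 genes were called and 617 (5.39%) had an unadjusted p under 0.05. Against the older sham alone, 5253 of 11277 genes were called (46.6%), 2042 higher (18.1%) and 3211 lower (28.5%) in the mixed-field libraries, and without M21 the number was 4678 of 11334. The younger and older sham differed from each other in 4823 of 11511 genes (41.9%) with RIN in the model. Since the age of the irradiated mice was not given, field and age cannot be told apart in a comparison with sham mice of 1 age.

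Overlap with the sham ranges was counted for M1, M4 and M5 and for M21 to M25 in the genes called against the older sham. For 4433 of the 5253 genes M1, M4 and M5 overlapped the range of the older sham libraries, whereas M21 to M25 did so for 1931. M21 to M25 overlapped the range of the younger sham for 5160 of these genes, and M1, M4 and M5 for 2458. For 591 genes all 8 mixed-field libraries lay apart from all 5 older sham libraries. These sets differ in size, at 3 and 5 libraries, and a set of 5 overlaps more easily. The genes were also called with these same 8 libraries. As 5 of the 8 are M21 to M25, genes in which that set lies apart from the older sham are favoured. How much of the contrast comes from this was not tested. Such overlaps were not counted over all 11277 genes tested, so that no share stands beside these numbers.

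Against the older sham, named groups gave these counts. Of 31 tested genes of fatty acid oxidation 23 were called higher and 1 lower, of 71 of oxidative phosphorylation 45 and 0, of 21 of the sarcomere 14 and 0, and of 20 heat shock and chaperone genes 12 and 2, against 18.1% higher among all genes. Hadha had a log2 fold change of 1.16 and Pln 1.17 (edgeR adjusted p = 0.0005 and 0.00041). Of 18 tested genes of double-strand break repair 9 were called lower and 1 higher, and of 33 matrix genes 15 lower and 1 higher, against 28.5% lower among all genes. The medians against the younger sham were -0.08, -0.02, -0.06, 0.04, 0.02 and -0.26 for these 6 lists in the same order, so that the matrix list alone of the 6 kept a median beyond 0.10. The p53 targets split evenly, with 6 called higher and 6 lower of 23, and Cdkn1a, Ccng1, Bax and Phlda3 were not among them (adjusted p = 0.260, 0.221, 0.113 and 0.158), while Mdm2 had a log2 fold change of -0.35 (adjusted p = 0.0215). All 20 of the rises and falls chosen for a low p were called against the older sham, but both comparisons use the same mixed-field libraries.

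**Figure D5:**
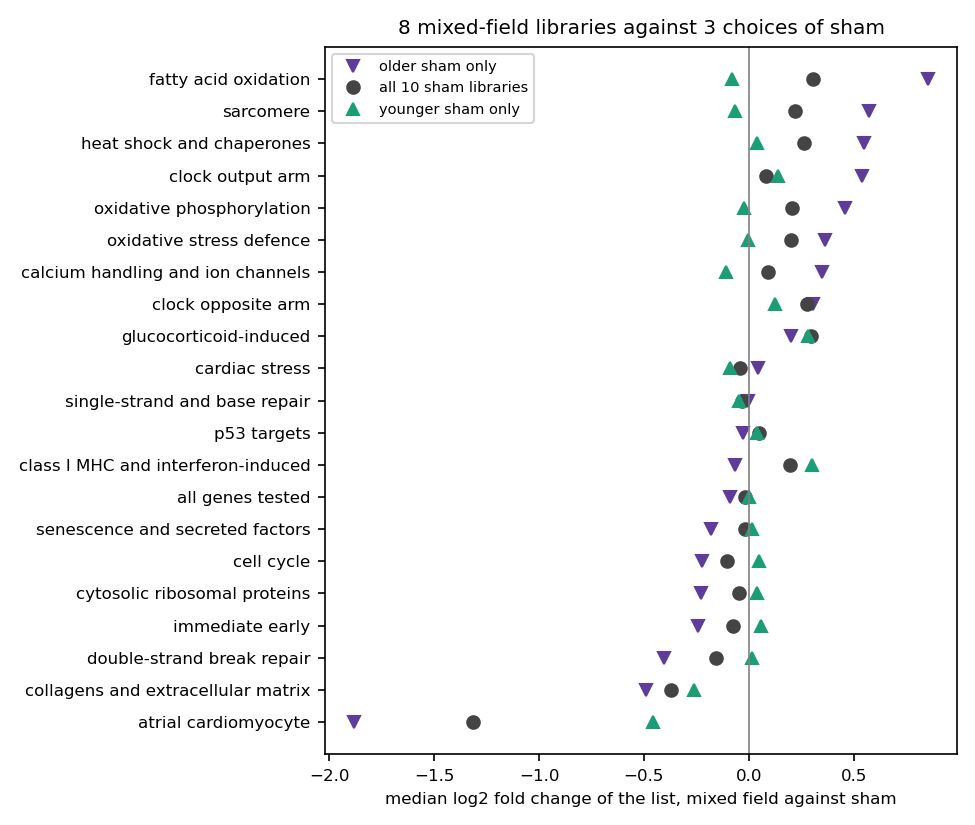
Median log2 fold change of each gene list, of the atrial markers and of all genes tested (rows) for the 8 mixed-field libraries against the 5 older sham (triangles down), all 10 sham (circles) and the 5 younger sham libraries (triangles up). Fatty acid oxidation lies at 0.86 against the older and -0.08 against the younger sham, while the p53 targets lie within 0.05 of 0 in all 3.

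Females gave a second set of mice under the same labels, with sham mice at 530 and 640 days. Among their libraries 5 pairs were nearly identical by the limit used for the males. RIN was 6.1 to 8.5 in the 10 mixed-field and 4.1 to 7.6 in the 9 sham libraries. With RIN in the model 0 of 11519 genes were called (0%) and 879 (7.63%) had an unadjusted p under 0.05. Without RIN the count was 1200 genes. Over the 10965 genes tested in both sexes, 50.6% had the same sign in males and females. Of the 20 rises and falls chosen for a low p in males, 16 had the same sign, 9 of the 10 rises and 7 of the 10 falls.

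In females Ltbp2 had the lowest value of the 20, at -0.86 (not called), and Capn5 had -0.44, while Ifitm1, Shld1, Clmp and Mmp14 had 0.06, 0.07, -0.07 and -0.0048. Ier3, Clock and Tiparp had the opposite sign, at -0.25, 0.13 and 0.04. The p53 targets had a median of -0.0018 over 24 tested genes and the matrix genes -0.18 over 32, 4 of them lower at an unadjusted p under 0.05. The interferon list, at 0.20 in males, was at -0.07 in females, and the glucocorticoid list at 0.15. The differences between the sexes in these lists were not tested.

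A test of the difference itself called 1 of 10965 genes (0.00912%). This was Tspan4, a membrane protein of the tetraspanin family at chr7:141055138-141073340, for which the effect in females minus the effect in males was -1.16 ± 0.21 on the log2 scale (edgeR adjusted p = 0.0406). This comes from a joint fit of both sexes with 1 slope for RIN, so that it is not the difference of the values fitted in each sex. In males it was at 47.5 to 70.3 CPM (median 60.3) in the mixed-field libraries and at 23.2 to 61.9 CPM (median 42.4) in sham, a log2 fold change of 0.49 ± 0.17, and in females the log2 fold change was -0.41 ± 0.10. Neither sex called it on its own (adjusted p = 0.511 and 0.247). The male sham levels were 45.5 to 61.9 CPM in the younger and 23.2 to 39.3 CPM in the older sham, and without M21, or with near-identical libraries counted once, 0 genes were called for the difference.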

How the data were processed

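RNA of right ventricular tissue was made into poly-A selected libraries. Per the labels, reads were checked with FastQC 0.11.9 and aligned to mm39 (GRCm39) with STAR 2.7.8a. The authors counted reads with HTSeq-count over the final 500 bp of every gene only, because some RNA was degraded, and deposited raw counts, which are used here as they stand. Counting only 3' ends is meant to make degraded samples more comparable but leaves fewer reads per gene. The RIN term of the male model was still called for 2375 of 11211 genes. The strand setting was not given in the sources used here.

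Of 56941 gene identifiers 56323 were matched to GENCODE names on GRCm39. Genes with more than 20 counts in every library of a comparison were tested with edgeR 4.0.16 (TMM scaling, quasi-likelihood test, RIN as a covariate, R 4.3.3), with Benjamini-Hochberg adjustment over all genes tested and a threshold of 0.05. CPM levels are TMM scaled. Single measures were compared with an exact permutation test over libraries. DESeq2 1.42.0 was run as an alternative, beside other filters, scalings and sets of libraries. The edgeR model with RIN and field was tested on simulated counts. These had the same dispersion for all genes, independent libraries and no effect of RIN, unlike the real data. The other models were not simulated. Total counts set the counting error, which is largest for genes near the filter. The labels do not say whether replicates were separate animals.

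Named genes were the 10 rises and 10 falls with the lowest p (none being called, and predicted genes not named), the up to 3 most abundant members of each list, and 6 p53 targets. Col3a1, Postn, Irf7, Bst2, Isg15, Tsc22d3, Fkbp5, Col14a1, Mt1, Hlf, Cry1, Nppb, Myl4 and Tspan4 were added after their values were seen. Some genes that this rule picks are not reported here. The members and lists were chosen with earlier results of these data known.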

Additional observations from a re-analysis of the deposited data

Results flagged for a closer look

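Levels of 56 sets of libraries (a named gene in 1 group) were searched for a library far from the others, and 6 had one. Chance alone gives about 1 in 20. The measure is the gap to the nearest library as a share of the whole range, on log2 CPM. Mixed-field library M5 was highest for Zbtb16 (5.80 against 4.68 for the next, a share of 0.534) and for Ddit4 (6.56 against 5.47, 0.563). Sham library M26 was lowest for Zbtb16 (0.898 against 2.58, 0.557). Mixed-field library M21 was highest for Ltbp2 (3.00 against 2.45, 0.536). Sham library M30 was highest for Mdm2 (6.10 against 5.76, 0.484) and lowest for Ccng1 (7.74 against 8.37, 0.512).

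Tspan4 differed between the sexes in the effect of the mixed field, with the effect in females minus the effect in males at -1.16 on the log2 scale (edgeR adjusted p = 0.0406). It was called for the difference with and without RIN in the model, and not without M21 or with near-identical libraries counted once.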

How the results depend on the processing

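No paired analysis was possible because the labels give no replicate numbers that pair mixed-field with sham mice. The 0 calls in males became 20 with DESeq2 (17 of them among the 10 rises and 10 falls chosen for a low p by edgeR, beside Gm8355, Irag1 and Cilp), 8 with all normal-diet male libraries in 1 fit, 4 on the high side of PC1 alone and 5253 with the older sham alone. The older sham gave 4678 without M21 and 2373 without RIN. With 1 library left out at a time there were 0 to 2 calls against all sham, with 2 without M9, and 562 (without M27) to 2150 (without M7) genes at an unadjusted p under 0.05. Females gave 1200 calls without RIN. The 1 gene called for the sex difference became 0 without M21 and 0 with near-identical libraries counted once. The difference in RIN turned to -0.42 without M1, M4 and M5 (exact permutation p = 0.504).

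The settings by side of PC1, with atrial markers as a term, with M22 and M24 summed, and the older sham without M21 or RIN were chosen after seeing the data. Of the log2 fold changes of named genes, those near 0 changed sign most, and the values with the other sign follow. Against the younger sham alone they were -0.10 for Ccng1, -0.15 for Xrcc6, -0.016 for Nbn, -0.060 for Parp1, -0.040 for Xrcc1, -0.12 for Igfbp7, -0.028 for Gpx4, -0.094 for Prdx5, -0.085 for Csrp3, -0.067 for Myh6, -0.050 for Tnnt2, -0.0025 for Myl2, -0.032 for Atp2a2, -0.14 for Hrc, -0.025 for Fabp3, -0.15 for Hadha, -0.096 for Atp5f1b, -0.11 for Atp5f1a, -0.036 for Rps2, 0.046 for Rpsa, -0.096 for Hspb7, 0.14 for Tef, -0.21 for Dbp, 0.37 for Sgk1, 0.097 for Ccnd2, 0.034 for Mdm2 and 0.18 for Bax. Against the older sham alone they were 0.0059 for Xrcc5, -0.092 for Cxcl12, 0.54 for Nr1d1 and -0.24 for Cdkn1a. Without M21 they were -0.041 for Xrcc6, 0.0015 for Sgk1 and 0.014 for Bax. Without RIN in the model they were -0.0044 for Cox6a2, -0.11 for Rps2, -0.11 for Rplp0, 0.17 for Tef, 0.31 for Sgk1, 0.019 for Dusp1 and -0.095 for Cdkn1a. Without M1, M4 and M5 they were 0.030 for Xrcc5, -0.17 for Cxcl12, 0.11 for Nr1d1 and -0.035 for Cdkn1a. With RIN from 4 to 6 they were 0.026 for Xrcc5, -0.070 for Igfbp7, -0.12 for Cxcl12 and 0.075 for Dusp1. With DESeq2 it was 0.0019 for Bax. With its size factors it was 0.0018 for Bax. With the side of PC1 as a term they were -0.044 for Xrcc6, -0.046 for Igfbp7, 0.11 for Tef, 0.23 for Sgk1 and 0.11 for Bax. With the atrial markers as a term they were -0.046 for Xrcc6, 0.0073 for Xrcc5, -0.045 for Cxcl12, 0.074 for Sgk1, 0.027 for Dusp1, 0.0014 for Ccnd2 and 0.0096 for Bax. Without M21 and with M22 and M24 summed they were -0.037 for Xrcc6, 0.026 for Tef, 0.073 for Sgk1 and 0.031 for Bax. With 1 library left out at a time, the values spanned -0.093 to 0.063 for Bax, -0.12 to 0.084 for Cdkn1a, -0.047 to 0.091 for Cxcl12, -0.18 to 0.0082 for Dusp1, -0.034 to 0.12 for Igfbp7, -0.19 to 0.055 for Sgk1, -0.13 to 0.17 for Tef and -0.051 to 0.029 for Xrcc6. The cause was not tested. The 20 rises and falls chosen for a low p kept their sign in each of these settings, and 19 of 20 did on the low side of PC1 alone. They were chosen from the same libraries, so that kept signs are no separate check. Genes under the filter, Eda2r and Bmal1 among them, were too shallow to test.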
